A study of Mus musculus with 6 samples.

Results

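Potassium channel genes were taken as all genes whose only symbol in the probe annotation starts with Kcn, together with Abcc8, and each was represented by its brightest probe set, taken as the mean of all 6 arrays. This gave 85 genes, covered by 169 probe sets, of 18194 genes with a named probe set. The choice used symbols and mean level, not a difference between groups. The arrays were 4 of MIN6, an insulin-secreting mouse beta-cell line, and 2 of mouse pancreatic islets on a C57BL/6 background. MIN6 cells had been infected for 48 h at a multiplicity of infection of 250, with 2% serum and glucose at 4.5 g/l in the medium. The virus was an adenovirus carrying green fluorescent protein (AdGFP, 1 array), miR-7a2 (AdmiR7a, 2 arrays of a duplicate infection) or miR-7b (AdmiR7b, 1 array), so the control cells were infected too. Islets came from mice with a Lox/Cre deletion of miR-7a2 restricted to beta cells (KO, 1 array) or from wild-type mice (WT, 1 array); non-beta cells of KO islets keep the gene, and the Cre line, the ages and the number of animals are not given in the sources used here. In islets, fewer cells of a type and less RNA per cell cannot be told apart.

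Potassium channels set the resting voltage of the beta cell and end its action potentials. The KATP channel, built from the pore subunit Kir6.2 (Kcnj11) and the sulfonylurea receptor SUR1 (Abcc8), closes when glucose metabolism raises ATP. Closure depolarises the membrane, opens calcium channels and releases insulin, and voltage-gated, calcium-activated and two-pore potassium channels then repolarise the cell. MicroRNAs pair through their seed with messenger RNAs and lower their level or translation.

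The miR-7 forms given to MIN6 cells are shown because their shared seed is the ground for pooling the arrays with either of them. Seeds (bases 2 to 8, in capitals) are identical, and over 23 shared bases the RefSeq sequences (GRCm38.p6) differ by A10U, counted from the 5′ end with the miR-7a base first.
mmu-miR-7a-5p: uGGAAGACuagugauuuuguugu
mmu-miR-7b-5p: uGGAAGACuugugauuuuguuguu
The miR-7a sequence is that of Mir7-2, the deleted gene, at chr7:78888295-78888317 on the plus strand, and miR-7b lies at chr17:56243017-56243040 on the plus strand. The level of miR-7 itself was not analysed here, as no probe set is named for it.

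Of the 85 genes, 28 reached a mean log2 intensity of 4 in MIN6, 24 in islets, 33 in either and 19 in both. A level of 4 was reached by 57.0% of all genes in MIN6, 58.0% in islets and 61.3% in either. The 52 potassium channel genes below 4 in both systems include 43 that stayed under 3 on all 6 arrays and 24 that sat at the floor of the values (2.17) on all 6. Kcnh5 was the 1 gene of these 52 with any array at 4 or more, AdGFP at 4.13. By role, the 33 comprise 3 of 3 KATP subunits, 2 of 13 other inward rectifiers, 4 of 12 two-pore channels and 8 of 22 voltage-gated pore subunits. They also hold 2 of 9 silent voltage-gated subunits, 9 of 15 auxiliary subunits and 2 of 3 remaining transcripts, both non-coding. The rest are 3 of 8 Kcnma, Kcnn, Kcnt and Kcnu genes, grouped by symbol as activated by calcium or sodium. Just inside the level of 4 lay Kcna4 in MIN6 (4.20) and Kcnh8 (4.10) and Kcnj3 (4.05) in islets. Just outside lay Kcnk3 in MIN6 (3.87) and Kcnmb4 in islets (3.79). Another 14 Kcn genes were not analysed here. Intensities of different probe sets depend on the probes, so levels are compared between arrays for 1 gene and never between genes.

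Tissue labels were checked against marker genes. The insulin gene Ins2 lay between 15.7 and 15.9 on all 6 arrays and the amylin gene Iapp between 16.1 and 16.2. The glucose transporter gene Slc2a2 was at 14.1 in WT and 14.5 in KO islets but at 3.84 with AdGFP and 2.52 with either miR-7 vector. In islets, 4 of 5 endothelial, 4 of 6 immune and 2 of 6 stellate and smooth muscle markers reached 4 and 0 of 4 measured acinar and 0 of 3 measured ductal markers did, although the ductal gene Krt19 was at 4.45 in KO and 2.68 in WT (ductal sum 4.96 and 3.96), with Sox9 and Cftr at or near the floor in both. The part of duct cells in the islet values was not tested. In MIN6, 1 of 5 endothelial markers (Esam) reached 4 and 0 immune, stellate, acinar or ductal ones. Markers of other endocrine cells were seen in both systems. Of 3 measured alpha markers 2 reached 4 in MIN6 and 3 in islets, and of 5 delta, PP and epsilon markers 3 and 4. The glucagon gene Gcg was at 13.35 with AdGFP, 12.71 to 12.93 on the miR-7 arrays and 16.38 in WT islets. The somatostatin gene Sst was at 9.64 with AdGFP and 14.74 in WT islets. The 3 miR-7 arrays differed among themselves by an SD of 0.196 to 0.216 (log2) across genes and from the AdGFP array by 0.511 to 0.578, and KO differed from WT by 0.394.

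**Figure D1:**
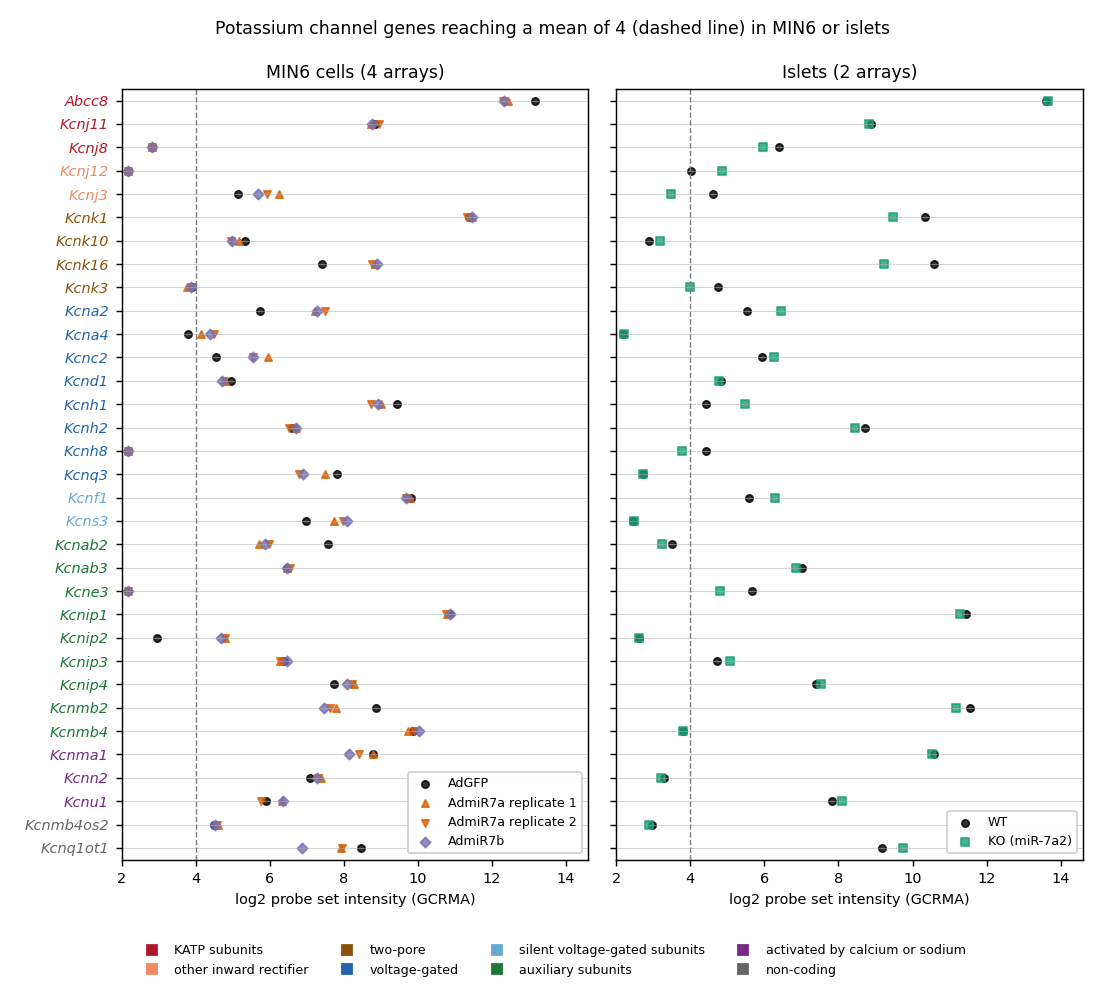
Log2 probe set intensity (x axis) of the 33 potassium channel genes with a mean of 4 (dashed line) in MIN6 or islets, 1 point per array, MIN6 left and islets right, gene names coloured by role. Abcc8 lies lower on the 3 miR-7 arrays (12.3 to 12.4) than with AdGFP (13.2), while Kcnj11 overlaps, and Kcnmb4, Kcnq3 and Kcns3 lie well above 4 in MIN6 and below it in islets.

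Whether raised miR-7 changes potassium channel transcripts of beta cells was asked in MIN6. "Rose" and "fell" refer to the limma comparison of the 3 miR-7 arrays with the 1 AdGFP array, two-sided, at an adjusted p (Benjamini-Hochberg over 10367 genes) under 0.05. Of 28 potassium channel genes tested, 6 rose (Kcna2, Kcnc2, Kcns3, Kcnk16, Kcnip2 and Kcnip4) and 4 fell (Abcc8, Kcnh1, Kcnab2 and Kcnmb2). All 3 miR-7 arrays lay on one side of AdGFP for 20 of the 28, beside 79.4% of all genes. Of all genes tested 14.0% rose and 12.1% fell, 26.2% in all, against 35.7% of the channel genes. Their median difference was 0.03 against 0.06 over all genes, and the median size of the difference 0.41 against 0.26. Kcnip2 and Kcna4 were under 4 with AdGFP and reached a mean of 4 only through the miR-7 arrays, so they could enter the test only by differing. Each difference rests on the lone AdGFP array, assumed to vary like the others, and the sources do not say whether the duplicate infections were separate cultures. Leaving out AdmiR7a replicate 1, AdmiR7a replicate 2 or AdmiR7b left none of the 10 calls, with all 10 differences in the same direction each time. These fits have 1 fewer array, and no gene of any kind passed in them.

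Of the KATP subunits Abcc8 fell, and Kcnj11 did not pass. Abcc8 stood at 13.17 with AdGFP, at 12.43 and 12.31 in the AdmiR7a arrays and at 12.33 with AdmiR7b. All 3 miR-7 arrays lay below the control, and Abcc8 fell by 0.82 ± 0.09 (SE; adjusted p = 0.0145), a 1.77-fold decrease in intensity. A second Abcc8 probe set went from 10.41 with AdGFP to 9.54, 9.60 and 9.43, a difference of -0.89.

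Kcnj11, its neighbour among coding genes on chromosome 7, was at 8.84 with AdGFP, 8.74 and 8.96 with AdmiR7a and 8.76 with AdmiR7b. The control lay within the range of the miR-7 arrays, the difference was -0.02 ± 0.12 (adjusted p = 0.934) and its 95% interval ran from -0.36 to 0.32. Kcnj8, the Kir6.1 pore subunit typical of vascular KATP channels, lay between 2.81 and 2.82 on the 4 MIN6 arrays and was not tested. The vascular partner gene Abcc9 (SUR2) was also below 4 in MIN6 (3.62 with AdGFP).

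Of the other inward rectifiers, Kcnj3 (GIRK1, opened by G proteins) alone reached 4 in MIN6. It was at 5.15 with AdGFP, 6.26 and 5.93 with AdmiR7a and 5.69 with AdmiR7b. All miR-7 arrays lay above the control, but the difference of 0.81 ± 0.24 did not pass (adjusted p = 0.0804).

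Of the two-pore channels, which carry background potassium current, Kcnk16 rose and 2 others did not pass. Kcnk16 encodes TALK-1, a two-pore channel known from pancreatic islets, where it limits beta-cell depolarisation. It was at 7.40 with AdGFP, 8.83 and 8.76 with AdmiR7a and 8.91 with AdmiR7b. The 3 miR-7 arrays lay close together and above the control, and Kcnk16 rose by 1.43 ± 0.09 (adjusted p = 0.0108), 2.70-fold. Kcnk1 (TWIK-1) stayed between 11.33 and 11.47 on all 4 arrays, with AdGFP inside that range (difference 0.05 ± 0.09, adjusted p = 0.716; a second probe set 0.14). Kcnk10 (TREK-2) was at 5.33 with AdGFP and between 4.95 and 5.17 with miR-7 (-0.30, adjusted p = 0.136).

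Voltage-gated pore subunits moved both ways, with 2 of 7 tested rising and 1 falling. Kcna2, a Kv1 delayed rectifier subunit, was at 5.75 with AdGFP, 7.23 and 7.50 with AdmiR7a and 7.29 with AdmiR7b. It rose by 1.59 ± 0.13 (adjusted p = 0.0126), 3.01-fold, and a second probe set differed by 1.58. Kcnc2, a fast Kv3 subunit, was at 4.55 with AdGFP, 5.96 and 5.55 with AdmiR7a and 5.56 with AdmiR7b. It rose by 1.14 ± 0.20 (adjusted p = 0.0301), all miR-7 arrays above the control and all 4 values below 6.

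Kcnh1, the pore subunit of the ether-a-go-go channel, was at 9.45 with AdGFP, 9.01 and 8.75 with AdmiR7a and 8.93 with AdmiR7b. It fell by 0.55 ± 0.13 (adjusted p = 0.0491), just inside the threshold, and a second probe set differed by -0.70. With the mean of its probe sets in place of the brightest, the adjusted p was 0.0629. Kcnq3, a subunit of the slow M-current channels, was at 7.81 with AdGFP, 7.50 and 6.79 with AdmiR7a and 6.89 with AdmiR7b. All 3 lay below the control, but the AdmiR7a arrays lay far apart and the difference of -0.75 ± 0.32 did not pass (adjusted p = 0.157). Kcna4 (0.54, adjusted p = 0.0863), Kcnd1 (-0.18, adjusted p = 0.146) and the ERG channel gene Kcnh2 (0.05, adjusted p = 0.778) did not pass either.

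Silent subunits form no channel alone and alter the channels they join. Kcns3 was at 6.98 with AdGFP, 7.74 and 7.98 with AdmiR7a and 8.10 with AdmiR7b. It rose by 0.96 ± 0.16 (adjusted p = 0.0274), 1.94-fold, and its second probe set differed by 1.33. Kcnf1 was at 9.82 with AdGFP and between 9.69 and 9.80 with miR-7 (-0.09, adjusted p = 0.468), with -0.31 for a second probe set.

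Auxiliary subunits held 4 of the 10 calls, 2 up and 2 down, of 8 tested. Kcnab2, the beta subunit that binds Kv1 channels such as those with Kcna2, was at 7.58 with AdGFP, 5.70 and 5.98 with AdmiR7a and 5.88 with AdmiR7b. It fell by 1.72 ± 0.13 (adjusted p = 0.0126), 3.30-fold, the largest decrease among the 28 genes. Kcnab3, another beta subunit, lay between 6.46 and 6.55 on all 4 arrays (0.04, adjusted p = 0.761).

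Kcnmb2, an inactivating beta subunit of the large-conductance calcium-activated (BK) channel, was at 8.87 with AdGFP, 7.80 and 7.63 with AdmiR7a and 7.48 with AdmiR7b. It fell by 1.23 ± 0.15 (adjusted p = 0.0178), 2.35-fold, and its second probe set differed by -0.77. Kcnmb4, another BK beta subunit, was at 9.87 with AdGFP, 9.75 and 9.88 with AdmiR7a and 10.02 with AdmiR7b, with the control inside the range (0.02, adjusted p = 0.942).

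KChIPs are calcium-binding proteins that accompany Kv4 channels. Kcnip2 was at 2.95 with AdGFP, 4.78 and 4.78 with AdmiR7a and 4.68 with AdmiR7b. It rose by 1.80 ± 0.08 (adjusted p = 0.0103), but the control value lies near the floor, and with quantile normalization again the difference was 1.12. Kcnip4 was at 7.72 with AdGFP, 8.26 and 8.23 with AdmiR7a and 8.10 with AdmiR7b, and rose by 0.47 ± 0.10 (adjusted p = 0.0411). Its 2 further probe sets differed by 0.29 and 0.18. Kcnip1 (-0.06, adjusted p = 0.625) and Kcnip3 (-0.05, adjusted p = 0.745) did not pass. A further Kcnip1 probe set at a mean of 10.03 differed by 0.07, but a dim one (mean 4.36) differed by -0.66. The second Kcnip3 probe set, also dim (mean 4.20), disagreed with the one used. It differed by 1.05, from 3.41 with AdGFP to 4.75, 4.13 and 4.51.

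None of the 3 tested genes in the group named as activated by calcium or sodium passed. Kcnma1, the BK pore subunit, was at 8.80 with AdGFP, 8.79 and 8.41 with AdmiR7a and 8.15 with AdmiR7b. These arrays spread widely, and the difference of -0.34 ± 0.27 did not pass (adjusted p = 0.39). A dimmer Kcnma1 probe set differed by -0.73. The small-conductance channel gene Kcnn2 stood at 0.23 (adjusted p = 0.115). Kcnu1, a sperm channel related to Kcnma1 and placed in this group by its symbol only, stood at 0.27 (adjusted p = 0.526).

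Among the 6 of the 10 called genes with a further probe set at 4 or more in MIN6, all 7 such probe sets differed in the same direction as the one used. Kcnab2, Kcnc2, Kcnk16 and Kcnip2 had no further probe set at that level. Near the floor, a further Kcnip2 probe set went the other way (-0.39, from 2.63 with AdGFP) and a further Kcnab2 one the same way (-0.05).

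**Figure D2:**
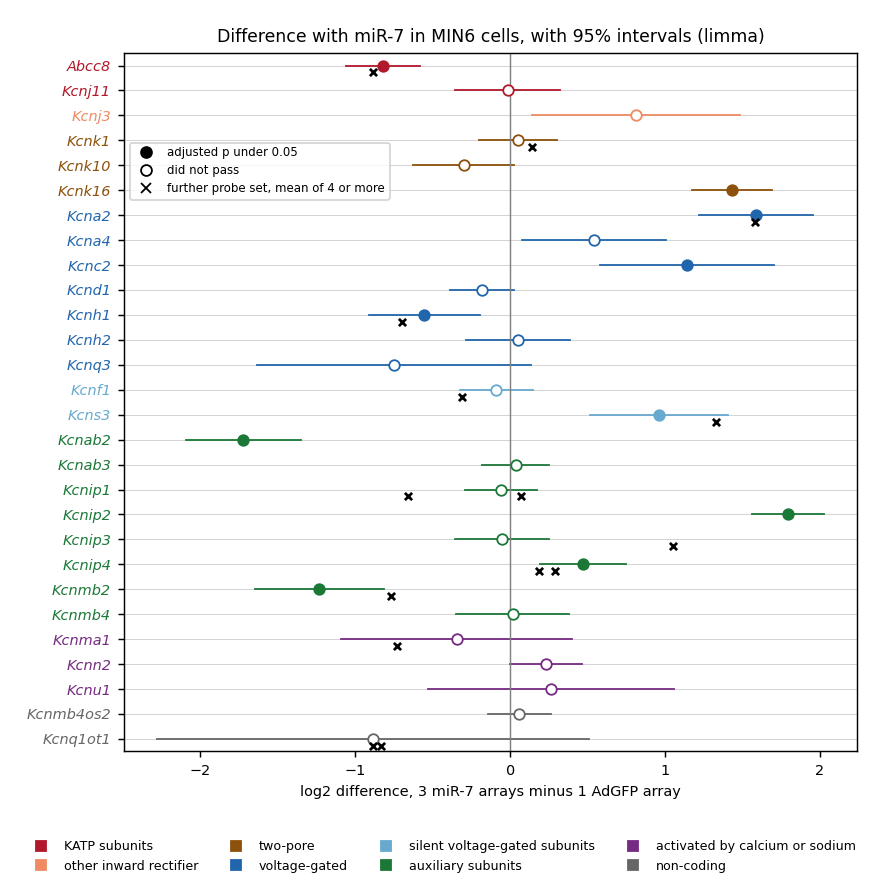
Log2 difference of the 3 miR-7 arrays from the 1 AdGFP array (x axis) for the 28 potassium channel genes tested, with 95% limma intervals as bars. Filled circles passed an adjusted p of 0.05, open circles did not, and crosses are further probe sets of the same gene with a mean of 4 or more. Kcnab2 (-1.72), Kcna2 (1.59) and Kcnk16 (1.43) lie far from 0, as does Kcnip2 (1.80), whose control value is near the floor, with Abcc8 at -0.82 and Kcnj11 at -0.02.

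AdmiR7b was also set against AdGFP alone and against AdmiR7a. Against AdGFP, with 1 array each and no test, 5 of 28 channel genes were at least 1 (log2) higher, against 3.82% of all genes. At least 1 lower were 3 of 28, against 4.36%. The AdmiR7a mean had 4 and 2 such genes, against 2.73% and 2.86% of all genes. The higher genes include Kcnip2, which reached a mean of 4 only through the miR-7 arrays. The 3 lower with AdmiR7b include the non-coding Kcnq1ot1, whose low value there was not seen on further probe sets (below). Both comparisons use the same AdGFP array. The difference with AdmiR7b and with AdmiR7a was -0.85 and -0.81 for Abcc8, 1.51 and 1.40 for Kcnk16, 1.54 and 1.61 for Kcna2, -1.70 and -1.74 for Kcnab2, and -1.39 and -1.15 for Kcnmb2. Between the vectors limma called 0 of 28 channel genes, 0.00% of all genes passing, with a lowest adjusted p of 0.739 and 1 channel gene at an unadjusted p under 0.05, beside 5.76% of all genes. This fit has 1 residual degree of freedom, and it also called 0 channel genes for AdmiR7a against AdGFP, 12 of them at an unadjusted p under 0.05 and 36.7% of all genes. That 1 gene was Kcnq1ot1, a long non-coding RNA transcribed antisense within Kcnq1, at 8.47 with AdGFP, 7.92 and 7.96 with AdmiR7a and 6.88 with AdmiR7b. Its low value with AdmiR7b (-1.06, unadjusted p = 0.0015 in limma, adjusted p = 0.739) was not seen on its 2 further probe sets above 4, where AdmiR7b was at 7.25 beside 7.84 and 7.26, and at 6.51 beside 6.75 and 6.43. All 3 probe sets were lower with miR-7 than with AdGFP, by -0.89, -0.84 and -0.89, and the one used did not pass (adjusted p = 0.257). The next largest vector differences were those of Kcnma1 (-0.45) and Kcnj3 (-0.41), with adjusted p of 0.742 and 0.739 in limma.

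Genes around these channels were counted from lists, beside 14.0% of all genes rising and 12.1% falling, and with so few genes a list nothing is read from the counts. Of 11 tested genes of glucose sensing upstream of KATP, 0 rose and 2 fell (median -0.10). They were Gpd2, of the glycerol phosphate shuttle, which fell by 1.17, and the adenylate kinase gene Ak1, which fell by 0.99. Of 13 calcium, sodium and cation channel genes 4 rose and 1 fell (median 0.25). The L-type calcium channel gene Cacna1d rose by 0.54, the sodium channel gene Scn9a by 1.44, Trpm4 by 0.49 and the pacemaker channel gene Hcn2 by 0.47, and Trpm5 fell by 0.79. Of 13 partner genes the syntaxin gene Stx1a rose by 0.84 and Prkar1a, a regulatory subunit of protein kinase A, fell by 0.69 (median 0.08). Of 3 sodium pump genes Atp1b3 fell by 0.51 (median -0.18). Of 10 beta-cell transcription factor genes 6 fell and 1 rose (median -0.68, against 0.06 over all genes). Foxa2 fell by 0.89 and Neurod1 fell by 0.53.

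In islets, 1 KO array was compared with 1 WT array, so no test was possible and values are given without a replicate check. Of 24 channel genes, KO exceeded WT for 10 and was below it for 14 (median difference -0.06, against -0.02 over all 10553 genes), and the median size was 0.39 against 0.17. A log2 size of 0.58 was reached by 10 of 24 channel genes, beside 9.10% of all genes. Of these, 4 were higher in KO and 6 lower, beside 4.54% and 4.56% of all genes. A size of 1 was reached by 1 gene above (Kcnh1; 1.61% of all genes) and 2 below (Kcnk16 and Kcnj3; 1.23% of all genes). Kcnj3, Kcnh8 and, narrowly, Kcnk3 were under 4 in KO and reached a mean of 4 only through WT, so they could enter these counts only by differing. At a size of 1, leaving out the genes with a mean under 6 left Kcnk16 alone of 14 channel genes. At 0.58 Kcnk1 (mean 9.90, difference -0.85) stayed too. The share over all genes was not counted at this filter, so nothing is read from these numbers.

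The KATP genes of the beta cell were nearly equal in both islet samples on the probe sets used. Abcc8 was at 13.65 in KO and 13.61 in WT, and Kcnj11 at 8.84 and 8.88. A second Abcc8 probe set was at 9.52 and 9.87, 0.36 in the other direction, and a second Kcnj11 probe set, below 4, at 3.40 and 2.36. With averaged probe sets the KO minus WT difference was -0.16 for Abcc8 and 0.50 for Kcnj11. Kcnj8 was at 5.97 in KO and 6.39 in WT (-0.41), and its vascular partner Abcc9 at 4.84 and 5.33 (-0.49). Stellate and smooth muscle markers summed to 10.4 (log2) in KO and 10.6 in WT, with Pdgfrb at 9.07 and 9.44, and endothelial markers to 9.89 and 10.1. Of these, Pecam1 was at 5.19 in KO and 6.30 in WT and Esam, which MIN6 cells also express, at 8.38 and 8.86, but Cdh5 was at 7.82 and 7.68 and Kdr at 8.46 and 8.44, so the endothelial markers did not move together. Of the smooth muscle markers, Acta2 was below 3 and Myh11 at the floor in both. The part of these cells in the Kcnj8 values was not tested.

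The 3 two-pore genes that reached 4 were all lower in KO. Kcnk16 was at 9.23 in KO and 10.58 in WT, 2.55-fold lower, and Kcnk1 at 9.48 and 10.33, 1.80-fold lower, with 0.96 for its second probe set in the same direction (KO minus WT -0.96). Kcnk3 (TASK-1, an acid-sensitive channel) was at 4.0 and 4.76, close to the level of 4. Of the inward rectifiers, Kcnj3 was at 3.48 in KO and 4.62 in WT and Kcnj12 (Kir2.2) at 4.85 and 4.03, so each had 1 value near the background. Kcne3, an accessory subunit of several voltage-gated channels, was at 4.79 in KO and 5.67 in WT.

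Among voltage-gated genes, Kcnh1 was at 5.47 in KO and 4.42 in WT and Kcna2 at 6.44 and 5.52. A second Kcna2 probe set was at 6.54 and 3.84, a difference of 2.69 with its WT value under 4. Kcnf1 was at 6.30 in KO and 5.58 in WT, but its other probe set, below 4, was at 3.21 and 3.49. Kcnh8 was at 3.78 and 4.41. Tubb3, a neuronal tubulin gene that beta cells also express, was at 8.28 in KO and 7.54 in WT and the peripheral neuron gene Prph at 2.79 and 2.17. Of 3 measured neural and Schwann markers 1 reached 4, and they summed to 8.35 (log2) in KO and 7.63 in WT, with the Schwann cell gene Sox10 at 3.02 in both. The part of nerve cells in the voltage-gated values was not tested.

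Of the BK channel genes, on the probe sets used, Kcnma1 was nearly equal in both samples and Kcnmb2 was lower in KO (-0.36). Kcnma1 was at 10.52 in KO and 10.59 in WT and Kcnmb2 at 11.19 and 11.55, with 0.03 for the second Kcnmb2 probe set. Further Kcnma1 probe sets disagreed, at 1.01, 0.96 and -0.16. Kcnip1 was at 11.27 and 11.44. Kcnip4 was at 7.54 and 7.39, but its further probe sets were at -1.25 and -0.36. Over all channel genes, 7 of 13 further probe sets with a mean of 4 or more in islets had the same sign as the one used.

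**Figure D3:**
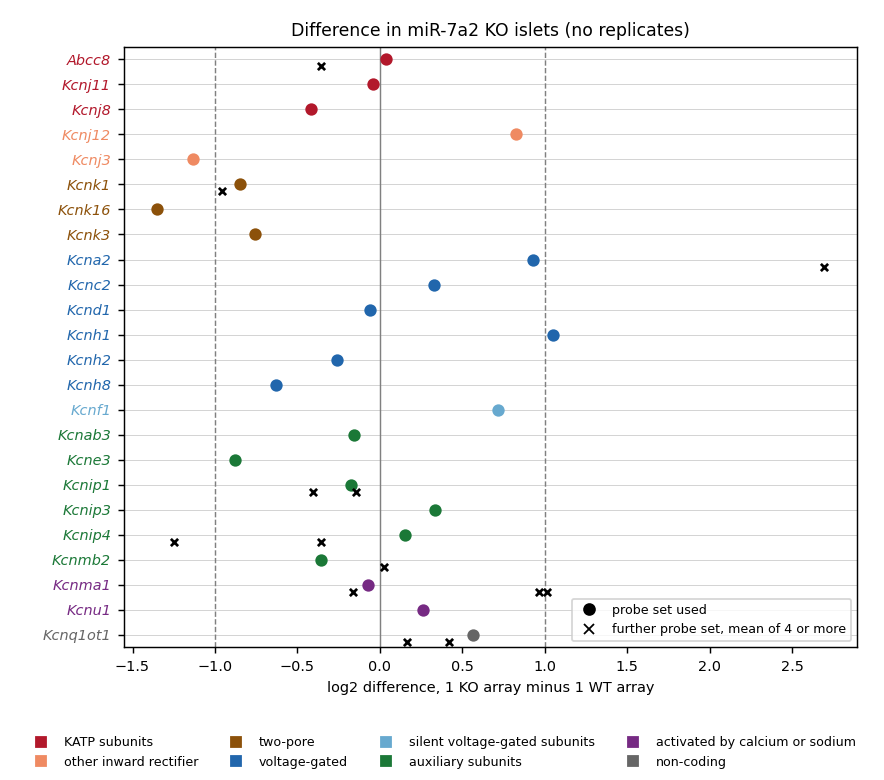
Log2 difference of the 1 KO islet array from the 1 WT array (x axis) for the 24 potassium channel genes with an islet mean of 4 or more, with crosses for further probe sets and dashed lines at a size of 1. Kcnk16 (-1.35) and Kcnj3 (-1.14) lie beyond the lower line, Kcnh1 (1.05) beyond the upper, and the further probe sets of Kcna2, Kcnip4 and Kcnma1 lie away from the points.

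Across systems, 10 of the 19 genes measured in both had opposite signs with miR-7 in MIN6 and in KO islets, 52.6%, against 59.9% of 9765 genes. Sizes of at least 0.58 in both systems were seen for 3 of the 19. The share over all genes was not counted at this size, so nothing is read from that number. Kcnk16 rose in MIN6 (1.43) and was lower in KO islets (-1.35), Kcnj3, under 4 in KO, was at 0.81 and -1.14, and Kcna2 was at 1.59 and 0.93. Kcnh1 fell by 0.55 in MIN6 and was 1.05 higher in KO. Abcc8, which fell in MIN6, was at 0.04 in KO islets, and Kcnmb2, which also fell, at -0.36. Their second probe sets were at -0.36 for Abcc8 and 0.03 for Kcnmb2, so both islet values depend on the probe set.

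**Figure D4:**
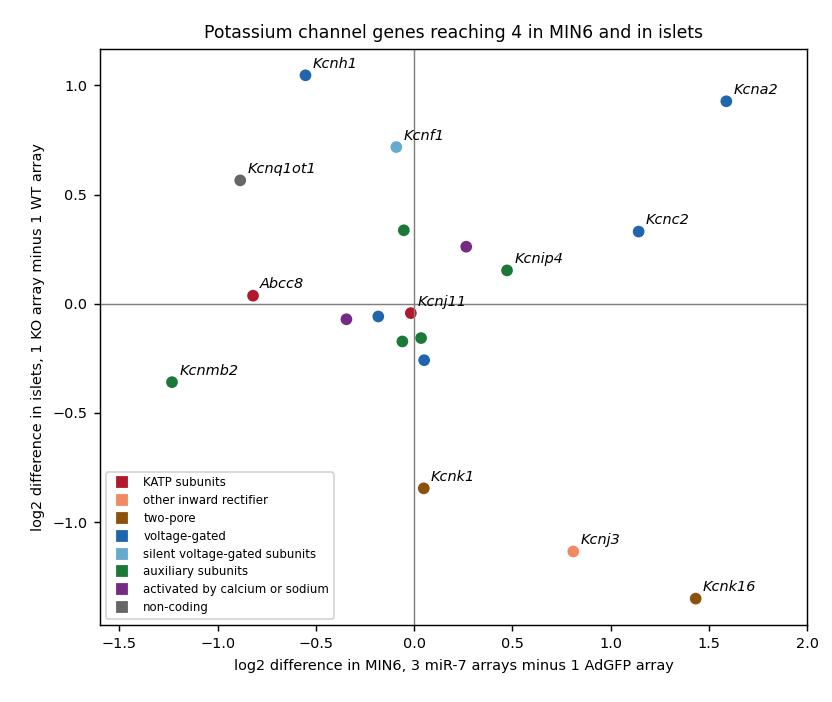
Log2 difference with miR-7 in MIN6 (x axis, 3 arrays minus 1) against log2 difference in KO islets (y axis, 1 array minus 1) for the 19 potassium channel genes with a mean of 4 or more in both, coloured by role. Kcnk16 and Kcnj3 lie at lower right, Kcnh1 at upper left, Kcna2 at upper right and Kcnj11 near the centre.

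The control arrays AdGFP and WT differ in tissue, culture and virus together, so their levels are given side by side with no test. Of the 33 genes, 8 were at least 2 (log2) higher in AdGFP and 6 at least 2 higher in WT, and 11 were within 1. Of the 33, 9 reached 4 only in MIN6 and 5 only in islets, so these entered through the system where they are high. The share over all genes was not counted, so nothing is read from these numbers. Kcnmb4 was at 9.87 in AdGFP and 3.79 in WT, Kcnq3 at 7.81 and 2.73, Kcnh1 at 9.45 and 4.42, Kcns3 at 6.98 and 2.46, Kcnf1 at 9.82 and 5.58, Kcnab2 at 7.58 and 3.50 and Kcnn2 at 7.08 and 3.29. Of the 10 genes called in MIN6, Kcns3, Kcnab2 and Kcnip2 thus stayed below 4 in islets. Kcnj8 was at 2.81 in AdGFP and 6.39 in WT, Kcne3 at 2.17 and 5.67, Kcnk16 at 7.40 and 10.58 and Kcnmb2 at 8.87 and 11.55. Kcnj11 was nearly equal, 8.84 and 8.88, and Abcc8 was at 13.17 and 13.61.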

How the data were processed

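The authors deposited log2 probe set values; per the submitters' processing notes they were made with GCRMA and the affy package, versions not given, which correct the background from probe sequence and normalize the arrays. Depth has no counterpart on arrays, and their number limits the precision. Probe sets with several symbols (932) or none (9211 of 45101) were left out. All 85 channel genes were found in RefSeq (GRCm38.p6), used for names and gene order. Genes with a system mean below 4 were left out of its comparison. Arrays were grouped from their titles. The MIN6 fit (limma 3.58.1, R 4.3.3; lmFit, eBayes) had 2 residual degrees of freedom, the fit with a mean per vector 1. Members, lists and tests were chosen with earlier results of these data known. Named genes were Abcc8 and Kcnj11, all called members, the 5 with the highest mean per system, islet members with a size of 0.58 or more and the 3 largest vector differences; the other genes named with values (such as Kcnq3, Kcnh5, Kcna4 and Kcnab3) and those in lists were picked after values were seen. Alternatives covered probe sets, filter, scaling, arrays and variance prior.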

Additional observations from a re-analysis of the deposited data

How the results depend on the processing

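The 10 potassium channel calls in MIN6 remained, all 10, with a probe set chosen on MIN6 arrays alone, with arrays centred on their median, with quantile normalization again and with a variance trend. With averaged probe sets they numbered 9 of 24 tested (8 shared), beside 2570 of 9775 genes. There Kcnh1 at -0.63 did not pass (adjusted p = 0.0629) and Kcnq1ot1 was added at -0.65 (adjusted p = 0.0422). Kcnip2 was below the filter and not tested. A filter at 6, which leaves Kcnc2 and Kcnip2 untested, gave 8 of 21, beside 3060 of 9204 genes. With no filter there were 4 of 85, beside 943 of 18194 genes in place of 2713 of 10367. They were Kcnk16 and Kcnip2 of the 10, plus Kcna1 and Kcnh5, which have means below 4. Leaving out 1 miR-7 array in turn gave 0 to 0 channel genes and 0 to 0 of all genes, with 3776 to 3886 at an unadjusted p under 0.05. These fits have 1 fewer array. AdmiR7a alone against AdGFP came from the fit with a mean per vector, where the lone AdmiR7b array adds nothing to the spread. It therefore repeats the fit without AdmiR7b and is no separate check. Channel genes past a size of 1 with AdmiR7b numbered 8 of 28, and 4 of 24 with averaged probe sets. In islets they numbered 3 of 24, then 1 of 18 with averaged probe sets and 1 of 14 with a filter at 6. The share over all genes at a size of 1 was not counted under these alternatives. The cause of the changes with averaged probe sets was not tested. Centring moved the median of all genes from 0.06 to 0.03. In islets the KO minus WT sign changed with averaged probe sets for Abcc8 (-0.16), Kcnj11 (0.50), Kcnip4 (-0.49) and Kcnma1 (0.35). In MIN6 the sign of 2 uncalled genes changed. Kcnj11 was at 0.015 with averaged probe sets, 0.023 without AdmiR7a replicate 1, and 0.015 without AdmiR7b or with AdmiR7a alone, from -0.089 to 0.023 over the arrays left out. Kcnmb4 was at -0.014 with centred arrays and -0.054 without AdmiR7b or with AdmiR7a alone, from -0.054 to 0.085 over the arrays left out. No paired analysis was possible because the labels give no pairing between arrays.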
